A study of Mus musculus with 2 samples.

Results

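The 9 genes described here, of T cell costimulation, checkpoint control and tryptophan catabolism, were followed in mouse splenic monocytes after loss of most kidney tissue. They are the ligand genes Cd274, Pdcd1lg2, Cd80, Cd86 and Icosl, the receptor gene Havcr2, and the enzyme genes Ido1, Kmo and Wars. The list was set by gene symbol, with earlier results of these data known. The symbols were matched to the gene name column of the 2 scanner files. All 9 genes were found, with 18 probes, among 24813 genes that could be named on the array. Gene expression was read on 1-colour Agilent arrays, 1 array per group. The 5/6Nx array carried RNA from mice with a 5/6 nephrectomy, an operation that takes away most of the kidney tissue and serves as a model of chronic kidney disease. The sham array carried RNA from mice with a sham operation. Both groups were of the ICR strain, an outbred stock, and monocytes were taken from the spleen 8 weeks after the operation by flow cytometric sorting on CD11b and Ly6C. The labels name no genetic change or drug in either group, and the number of mice behind each RNA and their age are not given in the sources used here. With 1 array per group there was no replicate check, so the values below carry no p-value and no test across animals.

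A T cell that meets its antigen also reads the other ligands on the presenting cell. CD80 and CD86 bind CD28 and promote activation, and they bind CTLA-4, which restrains it, while the ICOS ligand binds ICOS on activated T cells. PD-L1 and PD-L2, the products of Cd274 and Pdcd1lg2, bind the inhibitory receptor PD-1, and TIM-3, the product of Havcr2, is an inhibitory receptor found on T cells and on myeloid cells. IDO1 opens the ring of tryptophan and starts the kynurenine pathway, KMO hydroxylates kynurenine further down that pathway, and WARS loads tryptophan onto its tRNA. Interferon gamma is a known inducer of Cd274, Ido1 and Wars in myeloid cells.

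Of the 9 genes, 6 (Cd274, Pdcd1lg2, Cd80, Icosl, Havcr2 and Kmo) had an entry in the RefSeq promoter table (GRCm38.p6), and Cd86, Ido1 and Wars had none. The stretches of 250 bases before the transcription start were searched on both strands for the GAS element (TTCNNNGAA), for the interferon-stimulated response element (GAAANNGAAA) and for the kappaB motif by its name. The promoters of Pdcd1lg2 and Icosl are printed because each held the single kappaB match of its gene, which is in capitals. That of Cd274 is printed because the gene lies next to Pdcd1lg2 on chromosome 19, and it held no match to any of the 3 motifs. All 3 lie on the plus strand.
Pdcd1lg2, chr19:29410669-29410918: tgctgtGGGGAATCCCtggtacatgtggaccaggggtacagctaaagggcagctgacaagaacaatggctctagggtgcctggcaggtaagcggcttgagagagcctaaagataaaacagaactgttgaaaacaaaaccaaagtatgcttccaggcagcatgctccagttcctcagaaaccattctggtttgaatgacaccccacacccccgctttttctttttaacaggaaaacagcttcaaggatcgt
Icosl, chr10:78069118-78069367: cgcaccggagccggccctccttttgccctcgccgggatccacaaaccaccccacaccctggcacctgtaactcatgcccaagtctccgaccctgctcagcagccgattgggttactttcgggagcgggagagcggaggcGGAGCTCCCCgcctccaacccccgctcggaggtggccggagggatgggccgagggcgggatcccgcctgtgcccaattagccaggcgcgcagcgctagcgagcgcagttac
Cd274, chr19:29367188-29367437: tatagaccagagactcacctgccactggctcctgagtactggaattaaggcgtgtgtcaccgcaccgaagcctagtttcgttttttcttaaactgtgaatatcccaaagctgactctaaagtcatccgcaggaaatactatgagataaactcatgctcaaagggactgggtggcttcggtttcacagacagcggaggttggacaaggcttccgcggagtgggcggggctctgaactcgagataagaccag
The match lay 244 to 235 bases before the start of Pdcd1lg2 and 111 to 102 bases before that of Icosl. Among all 32851 promoters of the table, 7.25% held the kappaB motif, 7.02% the GAS element and 2.98% the interferon-stimulated response element. None of the 6 promoters held a GAS or response element in these 250 bases. These matches are letters in a window and were not set against binding data.

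All values below start from the processed intensity of a spot, given in the scanner's linear units. For comparison between the arrays, log2 intensity was taken relative to the array's 75th percentile, which was an intensity of 544.5 on the 5/6Nx array and 439.2 on the sham array. A probe counted as measured when it was detected on both arrays, that is, called well above background by the software, and each gene was read from the brightest such probe. The difference is the scaled log2 value on the 5/6Nx array minus that on the sham array. The ± after a difference is the software's own error of both spots, carried to the log2 scale, and it covers neither animals nor sorting nor labelling. It is not a spread measured between spots. Over 285 probes with at least 8 spots, the difference had an SD of 0.0775 in log2 units between spots.

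Of the 9 genes, 8 were measured on both arrays, and 5 of these 8 were higher on the 5/6Nx array by 2-fold or more: Pdcd1lg2, Cd274, Cd86, Wars and Kmo. This share of 62.5% stands beside 12.2% of the 15715 genes measured on both arrays. The 9 genes were chosen with earlier results of these data known, so setting these shares side by side is no test of the list. Kmo lay at the 2-fold threshold and fell short of it with some other ways of processing. Havcr2 was the 1 gene lower by 2-fold or more, where 11.0% of all genes were that much lower. Cd80 and Icosl lay within 2-fold on their brightest probes, and Ido1 was well above background on the 5/6Nx array alone. The median difference of the 8 genes was 1.103 in log2 units, or 1.21 with Ido1 at its bound, against -0.12 for all measured genes. The 16 measured probes of the list divided into 10 that were higher by 2-fold or more, 1 that was lower by as much, and 5 between. In RNA from a sorted bulk population, fewer cells of a type and less RNA per cell cannot be told apart.

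**Figure D1:**
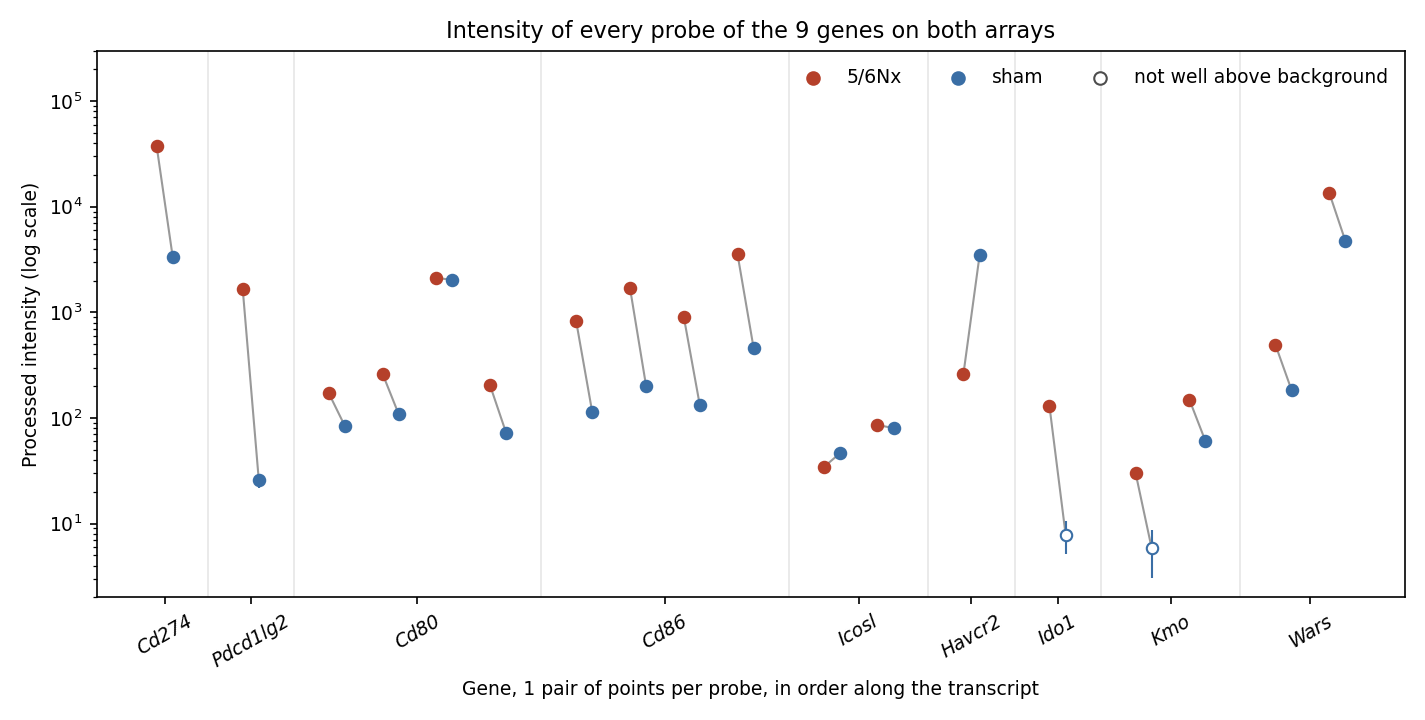
Processed intensity (log axis) of all 18 probes of the 9 genes on the 5/6Nx array (left of each joined pair) and the sham array (right), in order along the transcript, with the software's spot error as bars; an open symbol marks a spot not well above background. Pdcd1lg2 stood at 1679.7 on the 5/6Nx array and 25.6 on the sham array, and Havcr2 at 260.7 on the 5/6Nx array and 3454 on the sham array.

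Among the ligands of the inhibitory receptor PD-1, both genes were higher on the 5/6Nx array. Cd274 read 37606 ± 3761 on the 5/6Nx array and 3322 ± 332 on the sham array. The difference was 3.19 ± 0.20 in log2 units, or 9.13-fold, and 353 of the 15715 genes had a larger one. Its single probe lies at chr19:29462363-29462422 of the mouse build mm9, on the plus strand, 3416 bases into its transcript.

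Pdcd1lg2 read 1679.7 ± 168.0 on the 5/6Nx array and 25.6 ± 3.94 on the sham array. It was thus among the dimmer probes on the sham array, where the lowest probe well above background had an intensity of 13.0. The difference was 5.73 ± 0.27, or 52.9-fold, and 91 genes had a larger one. With another background correction (normexp) it came to 3.98. The probe lies at chr19:29545473-29545532 (mm9). The difference of Pdcd1lg2 exceeded that of Cd274 by 2.54 ± 0.33 in log2 units, where the error is again the software's alone. This excess depends on the dim sham spot of Pdcd1lg2 and on the background correction. With normexp the 2 genes lay much closer together, Pdcd1lg2 at 3.98 and Cd274 at 3.19.

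The CD28 ligands Cd86 and Cd80 gave different readings. Cd86 read 3547 ± 355 on the 5/6Nx array and 456.4 ± 45.7 on the sham array with its brightest probe (chr16:36603961-36604020, mm9, minus strand). The difference was 2.65 ± 0.20, or 6.27-fold, with 495 genes above it. All 4 probes of Cd86 were higher on the 5/6Nx array, with differences from 2.49 to 2.78. The probe 815 bases into the transcript read 822.9 on the 5/6Nx array and 112.8 on the sham array, and that at 1928 bases read 910.7 on the 5/6Nx array and 131.2 on the sham array. The other probe, designed on a separate transcript model, read 1709.9 on the 5/6Nx array and 201.3 on the sham array. The 4 probes thus lay on one side, above 2-fold.

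Cd80 had 4 measured probes that disagreed in sign, and the first 30 of the 60 bases of each are printed because the reading of the gene turns on which probe is taken. The number in each name is the probe's start on its transcript. All 4 are in lower case, since no part of them is singled out.
Cd80 at 583: agaccggggcacatacagctgtgtcgttca
Cd80 at 872: ttcaatacgactcgcaaccacaccattaag
Cd80 at 1457: aaaggagaggtgcctagtcttactgcaact
Cd80 at 2338: gattcctggaagtggcttttgctctttgga
The brightest probe, at 1457, lies at chr16:38486772-38486831 (mm9) and read 2121 ± 212 on the 5/6Nx array and 2026 ± 203 on the sham array. Its difference was -0.24 ± 0.20, a change of 1.18-fold downward that hardly exceeds the software's error. The other probes were all higher on the 5/6Nx array. The probe at 583 read 171.8 on the 5/6Nx array and 83.8 on the sham array, a difference of 0.73 ± 0.21. The probe at 872 read 262.5 on the 5/6Nx array and 108.6 on the sham array, a difference of 0.96 ± 0.21. The probe at 2338, which was designed on another transcript model of Cd80, read 202.9 on the 5/6Nx array and 71.7 on the sham array, a difference of 1.19 ± 0.21. The mean over the 4 probes was 0.66, and the brightest probe turned to 0.13 when the arrays were scaled on spike-in spots. No direction can be given for Cd80 as a whole. On the brightest probes, the difference of Cd86 exceeded that of Cd80 by 2.89 ± 0.29.

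Icosl, the gene of the ICOS ligand, was dim on both arrays and within 2-fold. Its brighter probe (chr10:77541662-77541721, mm9) read 85.7 ± 9.07 on the 5/6Nx array and 80.2 ± 8.51 on the sham array. The difference was -0.21 ± 0.22, no larger than the software's error, and became 0.16 with spike-in scaling. Its other probe, 363 bases into the transcript, read 34.1 ± 4.47 on the 5/6Nx array and 46.1 ± 5.36 on the sham array, a difference of -0.74 ± 0.25. Both probes lay below 0 on the main scale and neither passed 2-fold.

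**Figure D2:**
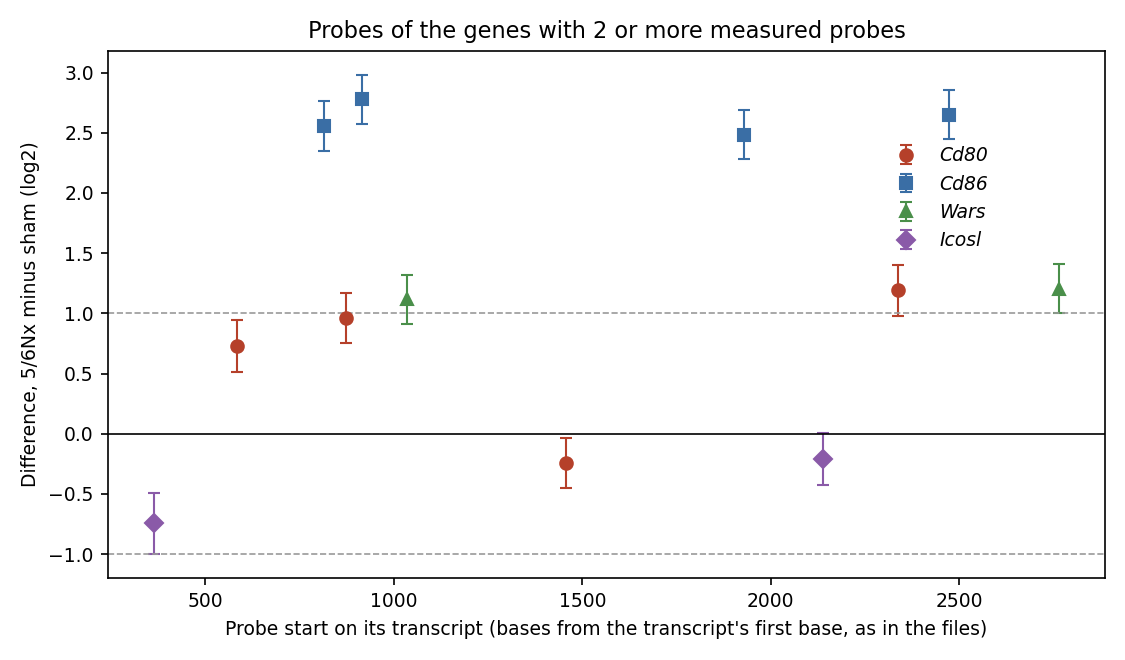
Difference between the 5/6Nx and sham arrays (log2, y axis) for each measured probe of the 4 genes with several of them, by the probe's start on its own transcript (bases, x axis), with the software's spot error as bars and dashed lines at 2-fold. The Cd86 probes lie between 2.49 and 2.78, while those of Cd80 run between -0.24 and 1.19.

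Havcr2, the inhibitory receptor gene, was the 1 gene of the list lower by 2-fold or more. It read 260.7 ± 26.2 on the 5/6Nx array and 3454 ± 345 on the sham array. The difference was -4.04 ± 0.20, that is 16.4-fold lower on the 5/6Nx array, and 61 genes had a lower one. Its single probe lies at chr11:46294650-46294709 (mm9), 2617 bases into the transcript, and the first 30 of its 60 bases are printed because the gene's direction rests on it alone.
Havcr2 at 2617: ctaacaaaatccattagagataacagctct
Over 12 alternative settings the difference lay between -4.19 and -3.66, so the gene was at least 2-fold lower in each.

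Of the enzymes that use tryptophan, Ido1, which opens the kynurenine pathway, was detected on 1 array. Its single probe (chr8:25694798-25694857, mm9, minus strand) read 128.7 ± 13.2 on the 5/6Nx array. On the sham array it read 7.86 ± 2.76 and was not well above background. Against the lowest intensity well above background on the sham array, Ido1 on the 5/6Nx array was at least 7.96-fold higher. The first 30 of the 60 bases of the probe are printed because the presence of a signal on 1 array rests on them.
Ido1 at 1253: tctatcagggcacagaaaacaccttcatcc
The fold is a lower bound, computed from the bright value and the array's floor rather than from a measured sham level. Among the genes detected on the 5/6Nx array only, 207 had a larger bound.

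Kmo, which acts further down the kynurenine pathway, lay at the 2-fold threshold. Its brighter probe (chr1:177590673-177590732, mm9) read 149.4 ± 15.3 on the 5/6Nx array and 60.2 ± 6.86 on the sham array. The difference was 1.0 ± 0.22, or 2.0-fold. It dropped below 2-fold in 4 of 11 alternatives, at 0.49 with normexp background correction, 0.85 with median scaling, and 0.87 both with quantile normalization and in the authors' value table. The second probe read 30.2 ± 4.15 on the 5/6Nx array and 5.83 ± 2.78 on the sham array, where it was not well above background, so that it was at least 1.87-fold higher. Kmo is therefore counted as higher only under the main setting and those alternatives that leave it at or above 2-fold.

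Wars, the cytosolic tryptophanyl-tRNA synthetase, was higher with both of its probes. The brighter one (chr12:110098245-110098304, mm9, minus strand) read 13600.2 ± 1360.0 on the 5/6Nx array and 4758 ± 476 on the sham array, a difference of 1.21 ± 0.20 or 2.31-fold. The other read 494.1 ± 49.5 on the 5/6Nx array and 184.0 ± 18.7 on the sham array, a difference of 1.11 ± 0.21. Wars stayed above 2-fold in all 12 alternatives, between 1.06 and 1.58, and 1427 genes had a larger difference. The difference of Cd274 exceeded that of Wars by 1.99 ± 0.29, whereas Kmo and Wars differed by -0.20 ± 0.30, less than the software's error.

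**Figure D3:**
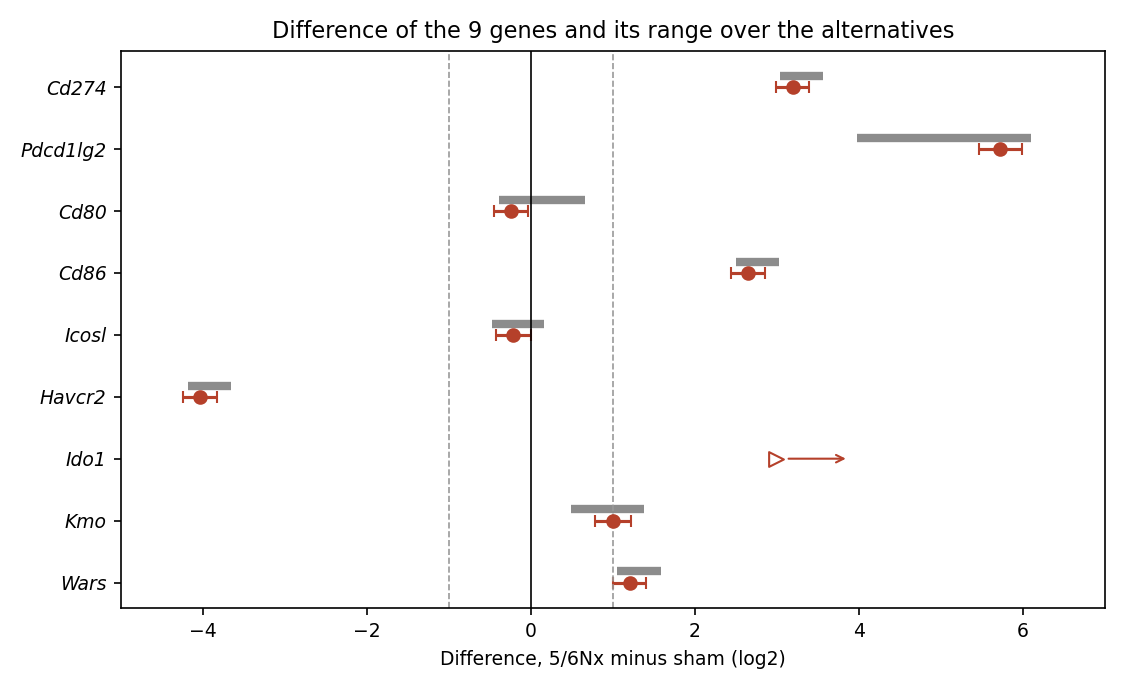
Difference between the 5/6Nx and sham arrays (log2, x axis) of the 9 genes, with the software's spot error as bars, the range over the alternatives as a grey band, dashed lines at 2-fold and Ido1 as a lower bound. Pdcd1lg2 lies at 5.73, Cd274 at 3.19 and Cd86 at 2.65, and Havcr2 lies at -4.04.

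The receptors of these ligands on T cells (Cd28, Ctla4, Icos and Pdcd1) were read together with Rgmb, a partner of PD-L2, and with partners of TIM-3 (Lgals9, Hmgb1, Bag6 and Ceacam1). Of these 9 genes, 7 were measured, 3 were at least 2-fold higher, 1 was lower, and the median was -0.05. Icos, the receptor of the ICOS ligand, read 3434 on the 5/6Nx array and 46.8 on the sham array, a difference of 5.89. Cd28, the receptor of CD80 and CD86, read 1813 on the 5/6Nx array and 181.6 on the sham array, a difference of 3.01. Lgals9, which encodes the TIM-3 ligand galectin-9, differed by 1.37, and Ceacam1, another partner of TIM-3, by -1.10. Ceacam1 came to less than 2-fold with normexp, loess and spike-in scaling. Pdcd1, which encodes PD-1, and Ctla4 were detected on the 5/6Nx array only, at least 31.3-fold and at least 7.04-fold higher. With these 2 genes at their bounds the median was 1.37.

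The other genes of the B7, butyrophilin and TIM families were counted in the same way, with 4 of 10 measured, none at least 2-fold higher, 2 lower and a median of -0.72. Vsir, which encodes the inhibitory ligand VISTA, differed by -1.54 and Cd276 (B7-H3) by -1.40, the second only by -0.80 with normexp. Btn1a1 differed by 0.34 and Btnl2 by -0.03. Btla, an inhibitory receptor gene of lymphocytes, and Timd4, a phosphatidylserine receptor gene of macrophages, were detected on the 5/6Nx array only, at least 12.3-fold and at least 11.2-fold higher, and the other 4 genes on neither array. The median with bounds was 0.15.

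A further list held costimulation genes of the TNF and SLAM families together with other contact genes of antigen-presenting cells (Cd200, Cd200r1, Cd47, Sirpa, Pvr and Nectin2), some of which are inhibitory. Of its 19 genes, 16 were measured, 10 were at least 2-fold higher and none lower, and the median was 1.78. The 13 genes of the TNF and SLAM families gave 7 higher of 10 measured, and the 6 others gave 3 higher of 6. The median came to 1.105 with normexp, and among genes brighter than the median gene it came to 0.31, with 1 gene higher of 6 measured. Cd40, the receptor through which helper T cells license antigen-presenting cells, read 3179 on the 5/6Nx array and 43.8 on the sham array, a difference of 5.87. Slamf7 differed by 5.30, Cd200, which encodes a ligand of an inhibitory myeloid receptor, by 3.37 and Tnfsf8, the CD30 ligand gene, by 2.61. Slamf1 and Cd70 were detected on the 5/6Nx array only, at least 37.9-fold and at least 1.99-fold higher.

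Around Ido1 and Kmo, the other tryptophan and kynurenine genes were mixed. Of 16 genes, 9 were measured, with a median of -0.10. Of these 9, 1 was at least 2-fold higher and 1 lower, near the shares of 12.2% and 11.0% among all measured genes. The higher one was Il4i1, a secreted oxidase of aromatic amino acids, which read 8601 on the 5/6Nx array and 152.2 on the sham array, a difference of 5.51. The lower one was Haao, the enzyme downstream of KMO and kynureninase, which read 203.9 on the 5/6Nx array and 514.4 on the sham array, a difference of -1.65. Got2 differed by -0.96 and Kyat1, a kynurenine aminotransferase gene, by -0.58. Kynu, which encodes kynureninase, read 157.3 on the 5/6Nx array and 8.42 on the sham array, where it was not well above background, so that it was at least 9.72-fold higher. Qprt, Ddc and Acmsd were likewise detected on the 5/6Nx array only, at least 9.27-fold, 4.51-fold and 2.36-fold higher. With these 4 genes at their bounds the median was 0.49, and 3 genes were above background on neither array.

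Genes of tryptophan transport and of the aryl hydrocarbon receptor, which kynurenine can activate, showed 3 higher and 1 lower of 8 measured among 10, with a median of 0.18. Slc7a5, the light chain of the large neutral amino acid transporter, differed by 1.79, or 0.78 with normexp. Arnt, the partner of the receptor, differed by 1.16 on its brightest probe, but its 3 probes ran between -0.51 and 1.16. Ahrr, the repressor gene, differed by 1.06 and Ahr itself by -1.05, both close to the 2-fold threshold and short of it under some of the alternatives. Cyp1b1, a target gene of the receptor, was detected on the 5/6Nx array only, at least 3.49-fold higher.

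The rest of the enzyme class of Wars was read beside it. All 19 other cytosolic aminoacyl-tRNA synthetase genes were measured. On their brightest probes none reached 2-fold in either direction, and their median was -0.07. The differences with the greatest size were those of Vars at -0.74, Qars at -0.65, Kars at 0.54 and Nars at -0.51. The other probe of Qars differed by -1.53, and over the alternatives Qars reached -1.09. Of 17 mitochondrial synthetase genes, 16 were measured and none reached 2-fold, with a median of -0.22. Lars2 was lowest at -0.62, followed by Fars2 at -0.48, Nars2 at -0.45 and Sars2 at -0.43. Mars2 was detected on the sham array only, where the 5/6Nx level was at least 2.06-fold lower. Wars2, the mitochondrial tryptophanyl enzyme gene, which was picked out after its value was seen, differed by 0.06. The medians of both synthetase lists turned positive with spike-in scaling, at 0.30 and 0.16.

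Genes of interferon gamma signalling were counted in the same way. Of 11 genes, 10 were measured, 6 were at least 2-fold higher, 4 within 2-fold and none lower, with a median of 2.50. Socs1, a feedback inhibitor of the pathway, read 14823 on the 5/6Nx array and 174.2 on the sham array, a difference of 6.10. Ciita, the activator of MHC class II genes, differed by 4.51 and Irf1 by 4.45. Ifng itself read 11298 on the 5/6Nx array and 11.5 on the sham array, where it was not well above background, so that it was at least 698-fold higher. The 4 genes within 2-fold were the receptor genes Ifngr1 at 0.08 and Ifngr2 at 0.18, the kinase gene Jak1 at -0.02 and Irf8 at 0.23. These genes were read in the same RNA as the 9 genes, and their part in the differences was not tested.

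**Figure D4:**
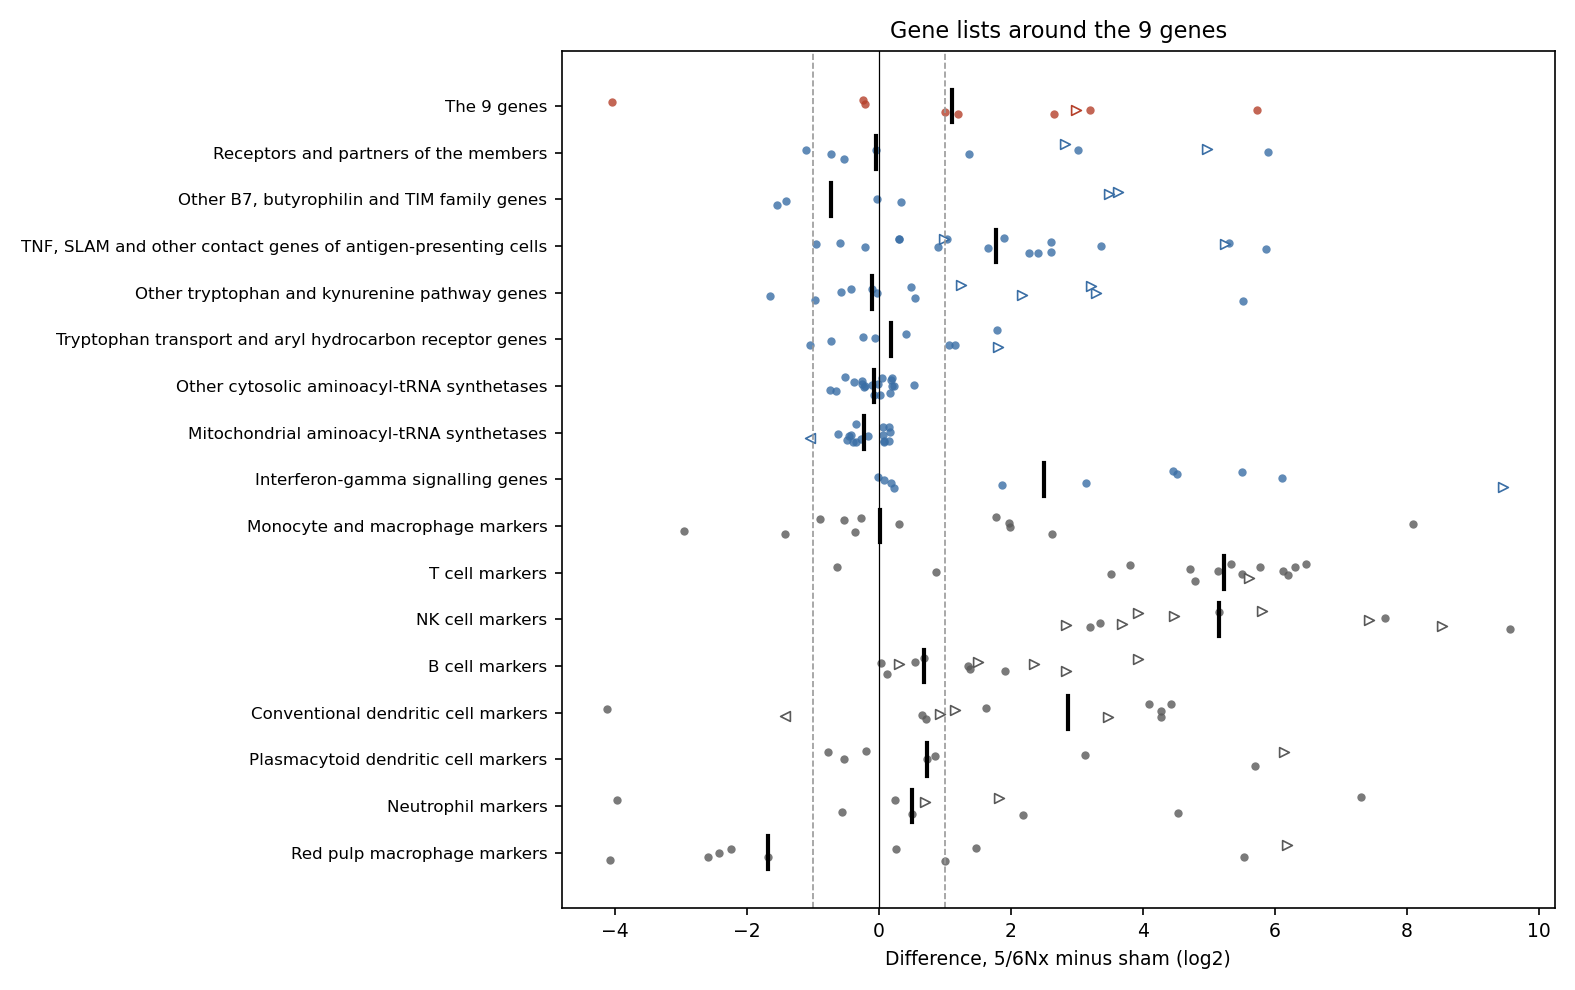
Difference between the 5/6Nx and sham arrays (log2, x axis) of every measured gene in the 9-gene list, the 8 lists around it and 8 lists of cell type markers, with list medians as black bars, dashed lines at 2-fold, and open triangles for genes above background on 1 array only, placed at their bound. The T cell markers have a median of 5.23 and the other cytosolic synthetases one of -0.07.

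The labelled cell type was checked on its markers. All 12 monocyte and macrophage markers were measured, 5 at least 2-fold higher and 2 lower, with a median of 0.02. Their summed level, in units of each array's 75th percentile, was 1730 on the 5/6Nx array and 1382 on the sham array. The sort antigen gene Itgam, which encodes CD11b, differed by -0.36. Ly6c1 and Ly6c2, near-identical paralogs whose probes cannot be told apart here, each differed by 1.98. They read 210831 and 213343 on the 5/6Nx array and 43112 and 43666 on the sham array. Both enter the summed level, so their signal may be counted more than once. Without this pair the summed level was lower on the 5/6Nx array than on the sham array. Fcgr1, a high-affinity Fc receptor gene, was higher at 2.63.

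Markers of T and NK cells were higher on the 5/6Nx array, beside the genes described above, while those of B cells were divided. Of 15 T cell markers, 14 were measured, 12 were at least 2-fold higher and none lower, with a median of 5.23 and Cd8a above background on the 5/6Nx array only. Their summed level was 94.5 on the 5/6Nx array and 7.83 on the sham array, and Thy1 differed by 6.47, Cd3g by 6.31 and Cd3d by 6.19. Of 12 NK cell markers, the 5 measured were all at least 2-fold higher and the remaining 7 passed background with 5/6Nx RNA alone. Their summed level was 92.5 on the 5/6Nx array and 0.842 on the sham array, with Gzma at 9.55, Il2rb at 7.66 and Klra7 at 5.15. Of 12 B cell markers, 7 were measured with a median of 0.68, 3 of them were at least 2-fold higher and 4 within 2-fold, 5 were detected on the 5/6Nx array only, and the summed level was 5.65 on the 5/6Nx array and 2.96 on the sham array. Cd79b differed by 1.92, Bank1 by 1.38 and Ebf1 by 1.36, while Ms4a1 differed by 0.68, Fcrla by 0.55, Cd22 by 0.13 and Pax5 by 0.03. These are the brightest probes, and the other measured probe of Ms4a1 differed by 2.59. Among genes brighter than the median gene, Cd22 was the only B cell marker left, so that filter gives no reading of the list. ICOS, CD28, PD-1 and CTLA-4 are receptors on T cells, and TIM-3 is found on T cells as well as on myeloid cells. The part of lymphocytes in the differences of the 9 genes was not tested.

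Markers of other myeloid cells moved in both directions. Of 13 conventional dendritic cell markers, 8 were measured, 5 higher and 1 lower, with a median of 2.86 and summed levels of 24.4 on the 5/6Nx array and 53.2 on the sham array. Clec10a carried most of the sham sum, and without it the sums were 21.5 on the 5/6Nx array and 2.13 on the sham array. Itgae differed by 4.43 and Fscn1 and Batf3 by 4.28, while Clec10a differed by -4.12, Cd209a was above background on the sham array only, Zbtb46, Clec9a and Ccl22 were detected on the 5/6Nx array only, and Xcr1 on neither. Of 8 plasmacytoid dendritic cell markers, 7 were measured, 2 higher and 5 within 2-fold, with a median of 0.73. Bst2 differed by 5.70 and Lair1 by 3.12. Ccr9 differed by 0.85, Klk1 by 0.73, Siglech by -0.20, Tcf4 by -0.53 and Pacsin1 by -0.77. Ly6d was detected on the 5/6Nx array only. The summed levels were 287.7 on the 5/6Nx array and 247.0 on the sham array, or 86.6 and 16.1 on the same arrays without Siglech. Of 12 neutrophil markers, 7 were measured, 3 higher and 1 lower, with summed levels of 318.4 on the 5/6Nx array and 275.0 on the sham array, or 29.4 and 32.0 on the same arrays without Csf3r. Mmp8 differed by -3.97, Ly6g by 4.53 and Lcn2 by 7.31. Of 11 red pulp macrophage markers, 9 were measured, 2 higher and 5 lower. Their summed levels were 132.0 on the 5/6Nx array and 166.5 on the sham array. Spic differed by 5.53, Trf by -4.08 and Slc40a1 by -2.58, though the other probe of Slc40a1 differed by only -0.21. The part of any of these cells in the differences of the 9 genes was not tested either.

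For each measured gene of the 9, the gene with the most similar pair of values was found by the distance between their scaled log2 values on the 2 arrays, over all 15715 genes. Nearest to Cd274 was Daxx, with a difference of 3.15 at a distance of 0.0926. Nearest to Pdcd1lg2 was Gstt1, with a difference of 5.93 at a distance of 0.172, and nearest to Cd86 was Dck, with 2.57 at 0.0808. Havcr2 lay next to Cebpa, a myeloid transcription factor gene, which differed by -4.02 at a distance of 0.0175. Wars lay next to Dnajc7, Kmo next to BC051408, Cd80 next to Smad1 and Icosl next to 1700001J11Rik, at distances between 0.0198 and 0.0682. With 2 arrays, such likeness describes a pair of values only.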

How the data were processed

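Spleen monocytes from ICR mice were profiled on 2 one-colour Agilent arrays, 1 per group, which share a slide and a scan per the file headers. The scanner files were deposited as linear intensity per spot, as written by Agilent Feature Extraction (9.5.1.1 per the submitters' processing notes, 10.7.1.1 per the file headers), already background-subtracted and detrended within each array per the file headers, with no scaling between arrays. The authors' deposited value table also holds linear intensity values, with a normalization that the sources used here do not state. Each array had 62976 spots, 59305 of them not controls, for 56605 probes, and 67.0% (5/6Nx) and 63.0% (sham) of the non-control spots were well above background. Spots with an outlier flag, 47 on the 5/6Nx array and 41 on the sham array, were left out, no spot was saturated, and spots of one probe were averaged. Log2 intensity minus the array's 75th percentile was compared without a test, since 1 array per group gives no replicate error and the number of arrays limits the precision. The spread between spots was an SD of 0.0519 (5/6Nx) and 0.0767 (sham) in log2 units. It was taken over 285 probes well above background on both arrays with at least 8 spots. Bounds for genes above background on 1 array use the means of normalized log2 values against the higher of the dim spot and the lowest signal well above background (intensity 13.7 on the 5/6Nx array, 13.0 on the sham array).

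Probes were named with a RefSeq table of GRCm38.p6 by accession (32994), by symbol (10224) or by synonym (520), and 12867 stayed unmatched. Probe positions are those of the files (mm9), with no exon annotation of that build used here. The members and lists were chosen with earlier results of these data known. The text names all 9 genes with their probes, up to 4 genes of largest absolute difference per surrounding list and up to 3 per marker list, the genes of the surrounding lists above background on 1 array only, the sort antigens, and the nearest gene of each member. Some of the genes this rule takes are not reported here. Ido2, Wars2, Ifngr1, Ifngr2, Jak1, Irf8, Siglech, Tcf4, Klk1, Pacsin1, Csf3r and the B cell markers within 2-fold lie outside this rule. So do the marker genes above background on 1 array or neither, and the genome neighbours. All of these, like the sums without 1 marker and the split by family, were picked after their values were seen. Alternatives covered the background correction (normexp with offset 50, limma 3.58.1 in R 4.3.3), scaling, filters on dim probes, the probe taken, outlier spots and the authors' table, 12 in all. Values were computed in Python 3.11.15 with pandas 2.3.3, and the steps were tested on simulated data.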

Additional observations from a re-analysis of the deposited data

How the results depend on the processing

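The count of the 9 genes at least 2-fold higher was 5, 4 with normexp, median scaling, quantile normalization and the authors' table, where Kmo came to 0.49, 0.85, 0.87 and 0.87, 6 with probes above background on at least 1 array or no filter, and 3 (of 5 measured) among genes brighter than the median gene. Havcr2 was at least 2-fold lower in all alternatives. The median difference of the measured members was 1.103, and it was 0.86 with normexp, 0.95 with median scaling, 1.27 with loess, 1.48 with spike-in scaling, 1.20 with the 75th percentile over detected probes, and 1.21 under each of the 3 other filters. The count of all genes higher, 1923, was 1164 with normexp, 3116 with spike-in scaling, 3013 with probes above background on at least 1 array, 3679 with no filter and 708 among bright genes. That of all genes lower, 1721, was 922 with spike-in scaling, 2700 with no filter and 911 among bright genes. Of the 89 measured genes in the surrounding lists, 23 were higher. The count was 35 with probes above background on at least 1 array or no filter and 11 among bright genes. Of the 69 measured marker genes 37 were higher, and the counts were 57 and 20 under the same filters. The number of genes counted changes with these filters, so the counts do not share a total. The median of the conventional dendritic cell markers turned to -0.014 among bright genes, where 2 were left. The causes were not tested.

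Of all calls, 52.8% were higher, 40.7% with median scaling, 62.4% with loess and 77.2% with spike-in scaling, which moved the median of all genes by -0.15, 0.18 and 0.38 in log2 units. The median of the receptors and partners was above 0 in 9 of 12 alternatives, scaling or not, and that of the cytosolic synthetases in 5 of 12. Signal over background limits Ido1, Kmo, Icosl and the sham value of Pdcd1lg2. No paired analysis was possible because each group had 1 array, and for the same reason no replicate could be left out.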

Other observations

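Beside the genes described, the neighbours of the members in RefSeq gene order were read, and they were chosen after the members' values were seen. Cd274 and Pdcd1lg2 lie next to each other, and the genes on either side of the pair, Plgrkt and Ric1, differed by 1.15 and 1.24 in log2 units (5/6Nx minus sham). Further out on the same chromosome, Ermp1 differed by -0.21 and Insl6 by -0.57.

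Havcr2 differed by -4.04, whereas Med7, the gene directly before it, differed by 0.00. Ido2, the neighbour and paralog of Ido1, read 27.2 on the 5/6Nx array and 15.7 on the sham array, a difference of 0.49 that became -0.05 with normexp. The genes on either side of Kmo, Fh1 and Opn3, differed by -0.28 and -1.91, those around Wars, Slc25a47 and Wdr25, by -0.49 and 0.17, and those around Cd80, Adprh and Timmdc1, by 0.21 and -0.90. Dnmt3l, the gene before Icosl, differed by -2.26.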
